A study of Rattus norvegicus with 7 samples.

Results

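The cytosolic ribosomal protein genes were examined as 1 group in RNA from cultured rat lenses. A gene was included where the platform annotation gave it a symbol of Rpl or Rps followed by a number, or the symbol Rplp0, Rplp1, Rplp2 or Rpsa, which leaves out the Rps6k kinases, Rps19bp1 and the mitochondrial ribosomal proteins. Each gene was read from its brightest probe, by mean over the 7 arrays, and that probe had to exceed a log2 signal of 5 in at least 1 array. Of 189 genes with such a symbol, 105 passed, among 5320 named probes that passed the same limit for all genes. The 105 genes are 68 of the large subunit and 37 of the small subunit. By symbol, 46 are the genes of the core ribosomal proteins themselves, 1 (Rpl7l1) is a paralog, and 58 are copies, whose symbol is that of a core gene followed by l or -ps and a number. RefSeq lists 12 of the 105 as pseudogenes. Copies can be nearly identical to their parent gene, so a copy's signal and the signal of its parent cannot be told apart here.

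The study asked which genes follow the opacity that galactose causes in the lens and its decrease with glutamate. Lenses of male Sprague Dawley rats aged 6 weeks were kept ex vivo in M199 medium with bovine serum albumin. The 2 Glutamate arrays came from 6 days with 30 mM galactose, the last 3 days with 20 mM glutamate as well. The 3 Galactose arrays came from 6 days with 30 mM galactose. The 2 Control arrays came from cultures without galactose, 1 of 6 days (Control Day 6) and 1 of 4 days (Control Day 4). Every lens was thus cultured outside the eye, and the Control group mixes 2 culture times. Nothing in the sources used here states that the arrays came from separate animals, so each p below measures the spread between these samples.

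A ribosome joins a large and a small subunit, each built of ribosomal RNA and many proteins, and the proteins are made in matched amounts from genes scattered over the genome. Messenger RNAs of ribosomal proteins begin with a run of pyrimidines (C or T in the DNA), the TOP motif, through which the mTORC1 kinase adjusts their translation to growth and nutrients. In the lens, epithelial cells keep their ribosomes, whereas maturing fibre cells lose their organelles and stop making new protein.

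Values are log2 signals of GeneChip Rat Gene 2.0 ST arrays, on which 1 unit is a 2-fold difference. The median log2 signal of the 5320 tested probes was 5.66 and 5.55 in the Glutamate arrays, between 5.68 and 5.76 in the Galactose arrays, 5.37 in Control Day 6 and 5.77 in Control Day 4. Lens markers were present: all 15 fibre markers and all 7 epithelial markers with a probe of their own passed 5, among them Mip, the major intrinsic protein of fibre membranes, at 10.81 to 11.88, and Pax6, a regulator of the lens epithelium, at 6.39 to 7.52. Markers of ciliary body and iris pigment (0 of 5), retina (0 of 6) and vessels (0 of 1) did not reach 5 in any array, and 2 of 8 leukocyte markers (Cd68 and Fcer1g, highest value 5.15) and 1 of 6 fibroblast markers (Pdgfra) did. In a whole lens, fewer cells of a type and less RNA per cell cannot be told apart.

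Of 77 core proteins of the rat ribosome, 46 had a probe of their own above 5, 31 of 46 in the large subunit and 15 of 31 in the small subunit. Another 13 were covered only by a probe that the annotation shares among several genes, such as Rpl31, Rpl38, Rps7 and Rps25, and 12 only by the probe of a copy, such as Rpl5, Rpl15 and Rps4x. Rpl26, Rps9 and Rps16 were at 5 or below in every array on their own probe. Just inside the limit of 5 were Rps6 (highest signal 5.03), Rpl10l1 (5.12) and Rps15al2 (5.16), and just outside it Rps27a-ps5 (4.98), Rps12 (4.92) and Rpl37a (4.83).

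Start sites are shown for 13 genes that the results below turn on, to set the genes with the largest group differences beside those that went against the rest. RefSeq's promoter table (build GRCr8) held 74 of the 105 genes, matched by gene ID. Each line gives 30 bases on the strand of the gene, 10 before its annotated start and 20 from it on, and capitals mark unbroken runs of at least 5 bases that are C or T.
Rpl34, chr2:221962264-221962293, minus strand: TCCTTTTCCTCTTCCggggacggtgcttag
Rpl36, chr9:1533770-1533799, plus strand: cggccgccatcggaaagctgcaggtaagtc
Rpl9, chr14:43247580-43247609, plus strand: aggacgTTCTCTCTTTgccccatctactgc
Rplp2, chr1:205975911-205975940, plus strand: cgccgccggacgccgccgaggtcgcacgcg
Rpl29, chr8:115947633-115947662, plus strand: TTTCTCTTTCTCTTCCggtcccaggcgctg
Rps21, chr3:187724028-187724057, plus strand: agccaCTTCCTTTCTgtgTTCTCCgtagac
Rplp0, chr12:46718371-46718400, minus strand: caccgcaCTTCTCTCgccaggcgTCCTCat
Rpl24, chr11:58128386-58128415, minus strand: tagggaggagaTTCTCTaccctataaggtg
Rpl41, chr7:1563478-1563507, minus strand: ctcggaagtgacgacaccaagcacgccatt
Rps24, chr16:96507-96536, plus strand: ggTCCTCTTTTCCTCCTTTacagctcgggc
Rps3a, chr2:173827023-173827052, minus strand: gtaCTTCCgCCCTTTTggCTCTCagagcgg
Rps18l5, chr5:118112588-118112617, plus strand: aaaagtgCTTTTgagCTTCCacaggaggcc
Rps26-ps13, chr11:83864128-83864157, plus strand: ttcatggccagactgggaaacagaagaccc

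A run of at least 8 such bases lay in this window in 24 of 39 core genes (61.5%), in 16 of 26 of the large and 8 of 13 of the small subunit. It lay in 11 of 34 copies (32.4%), and in 10.8% of all 33469 promoters of the table in the same window. A C at the annotated start followed by 4 bases of C or T, the stricter form of the motif, was found in 15 of 39 core genes (38.5%), 2 of 34 copies (5.88%) and 2.63% of all promoters. Both were read on the strand of the gene only. A match is a description of these letters and not a measured start.

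Across the 7 arrays the 105 genes moved largely as 1 group, and the widest excursion was in Control Day 6. With each gene set against its own mean over the arrays, the median of the 105 genes was 0.08 and -0.03 in the Glutamate arrays, 0.51, 0.16 and 0.12 in the Galactose arrays, -1.19 in Control Day 6 and 0.32 in Control Day 4. Among the 5320 tested probes the corresponding medians were 0.03 and -0.06, then 0.01, 0.07 and 0.11, then -0.24 and 0.11. Control Day 6 was the array with the lowest signal in 91 of the 105 genes (86.7%), against 45.1% of all tested probes, and in 44 of the 46 core genes. The highest signal was in Galactose 1 for 44 genes and in Control Day 4 for 32. The Pearson correlation of a gene with the mean of the other genes over the 7 arrays was above 0.9 in 52 genes, above 0.8 in 77 and below 0 in 6. This correlation is a description over 7 arrays that share 1 normalization, and in most genes Control Day 6 lies far from the others.

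**Figure D1:**
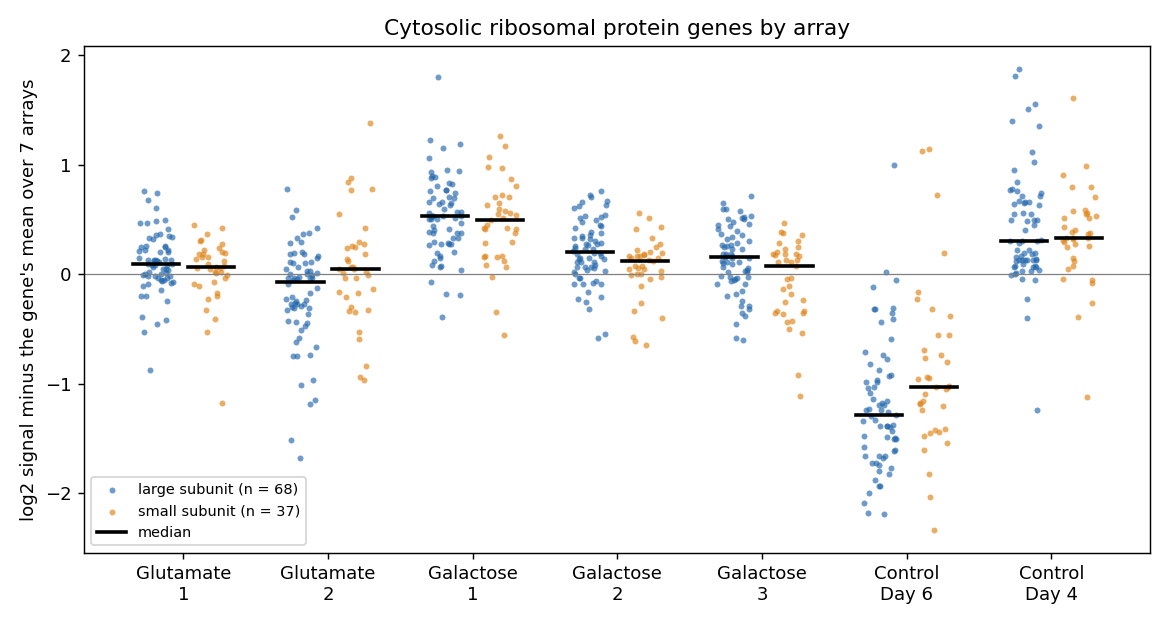
Log2 signal of each of the 105 ribosomal protein genes minus the gene's own mean over the 7 arrays (vertical axis), by array, with large subunit genes (n = 68) and small subunit genes (n = 37) apart and their medians as bars. The medians in Control Day 6 were -1.29 for the large and -1.03 for the small subunit, below those of the 6 other arrays.

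The gap between the 2 Control arrays ran in 1 direction in nearly all genes. Control Day 6 was lower than Control Day 4 in 99 of the 105 genes (94.3%), against 70.5% of all tested probes, and at least 2-fold lower in 82 (78.1%), against 25.4% of all tested probes. The median difference was -1.63 on the log2 scale for the 105 genes and -0.40 for all tested probes. It was -1.75 in the large subunit and -1.31 in the small subunit, and in the core genes alone -1.61 (31 genes) and -1.28 (15 genes). Among copies it was -2.01 in the large and -1.57 in the small subunit. There is 1 array for each culture time, so the time in culture and this particular array cannot be told apart, and the gap has no test.

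Rpl34, a protein of the large subunit, had a log2 signal of 9.26 in Control Day 6 and 11.48 in Control Day 4. Rpl29, another large subunit protein, had 7.49 in Control Day 6 and 10.08 in Control Day 4 and thus the widest gap of a core gene (-2.59). Rps13, of the small subunit, had 7.40 in Control Day 6 and 9.92 in Control Day 4. In all 3 genes the signal of Control Day 6 was below every other array of the series. The widest gaps were in copies: Rpl31-ps11 (-3.90), Rpl28l1 and Rpl22-ps2 (both -3.70) and Rpl29l1 (-3.58).

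Some core genes barely took part. Rpl24 had 7.84 in Control Day 6 and 8.09 in Control Day 4, and Rplp0, the base of the ribosomal stalk, had 8.54 and 8.81 in the same order. Rps24 differed by -0.29 between Control Day 6 and Control Day 4 on its own probe, which is near the limit of 5. A brighter probe that the annotation shares between Rps24 and Rps24-ps15 had 9.63 in Control Day 6 and 10.77 in Control Day 4, so the small gap belongs to the dim probe alone. Rpl41, the smallest ribosomal protein, had 11.62 in Control Day 6 and 12.01 in Control Day 4, a difference close to the median of all tested probes. Rps3a, a small subunit protein near the messenger RNA exit, was the 1 core gene with the opposite sign, at 7.16 in Control Day 6 and 6.08 in Control Day 4. A further 5 genes with a higher signal in Control Day 6 were all copies. As differences between Control Day 6 and Control Day 4 they were Rps15al2 (2.27), Rpl37al2 (2.24), Rps26-ps13 (1.11), Rpl10l1 (0.42) and Rps18l3 (0.24). Rps15al2 and Rps26-ps13 passed the limit of 5 only in Control Day 6, where they were higher. Their sign is thus not independent of the limit. Rps15al2 had this sign on its own dim probe, whereas a brighter probe shared with Rps15a and Rps15al4 had -0.97.

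**Figure D2:**
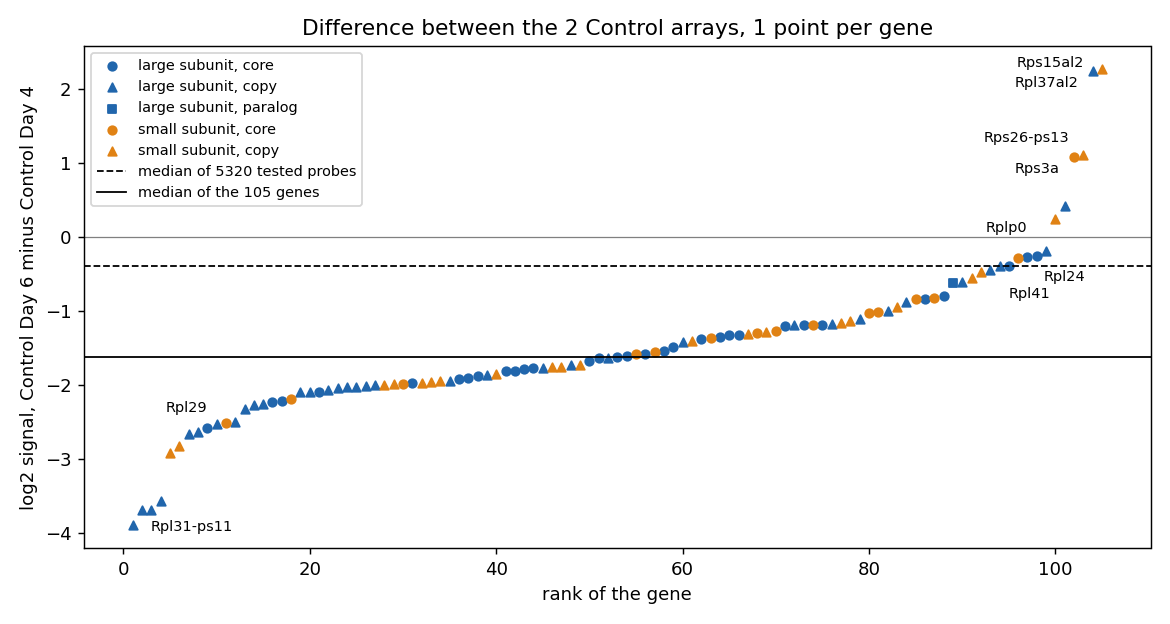
Log2 signal of Control Day 6 minus Control Day 4 (vertical axis) for each of the 105 genes in rank order (horizontal axis), coloured by subunit, with core genes as circles, copies as triangles and the paralog as a square. 99 genes lie below 0, with a median of -1.63 (solid line) against -0.40 for the 5320 tested probes (dashed line), and Rps3a is the 1 core gene above 0.

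The gap was also set beside the run of pyrimidines, as medians with no test. Among core genes with a run of at least 8 bases the median of Control Day 6 minus Control Day 4 was -1.59, and among the other core genes -1.35. Copies had -2.03 with and -1.77 without such a run. In the 74 genes with a promoter sequence the medians were -1.64 with and -1.64 without such a run. The run was rarer in copies, whose gaps were wider. Rpl36 and Rplp2, with no run of 5, had gaps of -1.89 and -1.78.

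Signal level moved with the gap over all genes. Tested probes with a mean above 8 that belong to none of the 105 genes (358 probes) had a median Control Day 6 minus Control Day 4 of -1.08, and 294 of them were lower in Control Day 6. In the ribosomal protein genes the median was -1.64 for the 63 genes with a mean above 8, all of which were lower in Control Day 6, and -1.51 for the 42 genes at 8 or below. The part of signal level in the gap was not tested.

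Galactose against Control asked which genes follow the induced opacity. Galactose had the higher mean in 91 of the 105 genes (86.7%), against 62% of all tested probes, and the lower mean in 14, against 38%. The median difference was 0.64 on the log2 scale, against 0.17 for all tested probes. With limma and Benjamini-Hochberg adjustment over the 5320 probes, 0 of the 105 genes passed an adjusted p of 0.05 in either direction (0.0564% of all tested probes passed as higher and 0.0376% as lower in Galactose). Unadjusted p values were under 0.05 in 11 genes with the higher mean in Galactose (10.5%) and in 1 with the lower (0.952%), against 11.8% and 5.23% of all tested probes, so the share of higher genes was near the background. The Galactose arrays all lay above both Control arrays in 20 genes (19%), against 21.5% of all tested probes, and below both in 1 gene, against 12.1%. A mean at least 2-fold higher in Galactose was found in 18 genes (17.1%), against 9.19% of all tested probes, and at least 2-fold lower in 2 (1.9%), against 1.84%.

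Rpl36, a large subunit protein, had log2 signals of 11.24, 11.13 and 11.12 in the Galactose arrays, against 8.62 in Control Day 6 and 10.50 in Control Day 4. All Galactose arrays were above both Control arrays, and the Galactose arrays lay much closer together than the Control arrays. The mean was 11.16 ± 0.06 in Galactose (SD, n = 3) and 9.56 ± 1.33 in Control (SD, n = 2). The difference of 1.61 (standard error 0.62, limma adjusted p = 0.274) was the largest among the 105 genes. A dimmer probe that the annotation shares between Rpl36l5 and Rpl36 had 9.15, 8.16 and 8.38 in the Galactose arrays. Its Control signals were 7.06 on Day 6 and 8.18 on Day 4, so the groups overlapped there, with a difference of 0.94.

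Rplp2, an acidic protein of the stalk that recruits elongation factors, had 10.29, 10.35 and 10.18 in the Galactose arrays, against 7.92 in Control Day 6 and 9.71 in Control Day 4. Again all Galactose arrays were above both Control arrays. The difference was 1.46 (standard error 0.49, limma adjusted p = 0.232), and its unadjusted p of 0.0214 was the smallest among genes that were higher in Galactose. Rpl34 was equally far apart at 1.46 (standard error 0.61), with 11.83, 11.82 and 11.84 in the Galactose arrays, against 9.26 in Control Day 6 and 11.48 in Control Day 4. Rpl9 and Rpl30, both of the large subunit, each differed by 1.21 (standard error 0.45 for both), and Rps26l5, a copy of a small subunit gene, by 1.45 (standard error 0.76).

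Copies of Rpl36 followed it. Rpl36l2 had 11.67, 11.61 and 11.54 in the Galactose arrays, against 9.58 in Control Day 6 and 10.78 in Control Day 4, a difference of 1.43 (standard error 0.48, limma adjusted p = 0.232). Rpl36l6 had 11.14, 10.77 and 10.77 in the Galactose arrays, against 8.51 in Control Day 6 and 10.28 in Control Day 4. Both copies had all Galactose arrays above both Control arrays, while Rpl36l3 differed by 1.22 (standard error 0.70) with overlapping groups. Rpl36l1, with signals between 4.26 and 5.66 over the 7 arrays, differed by 0.53.

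In the other direction, Rps3a had 5.69, 5.42 and 5.53 in the Galactose arrays, against 7.16 in Control Day 6 and 6.08 in Control Day 4. All Galactose arrays were below both Control arrays, which happened in no other of the 105 genes. The difference was -1.07 (standard error 0.33, limma adjusted p = 0.206), with the smallest unadjusted p of the group (0.015). Rps18l5 had the lowest difference (-1.10, standard error 0.87). Its Galactose arrays ran from 3.05 to 4.23, against 3.78 in Control Day 6 and 5.77 in Control Day 4, so that the groups overlapped. Brighter probes that the annotation shares among Rps18, Rps18l1 and Rps18l5 differed by 0.13, so the lower mean belongs to the dim probe. Rpl28l3 (-0.81), Rps28 (-0.27) and Rps26-ps13 (-0.23) completed the 5 lowest, all with overlapping groups. Rps26-ps13 passed the limit of 5 only in Control Day 6, so its lower mean in Galactose is not independent of the limit.

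**Figure D3:**
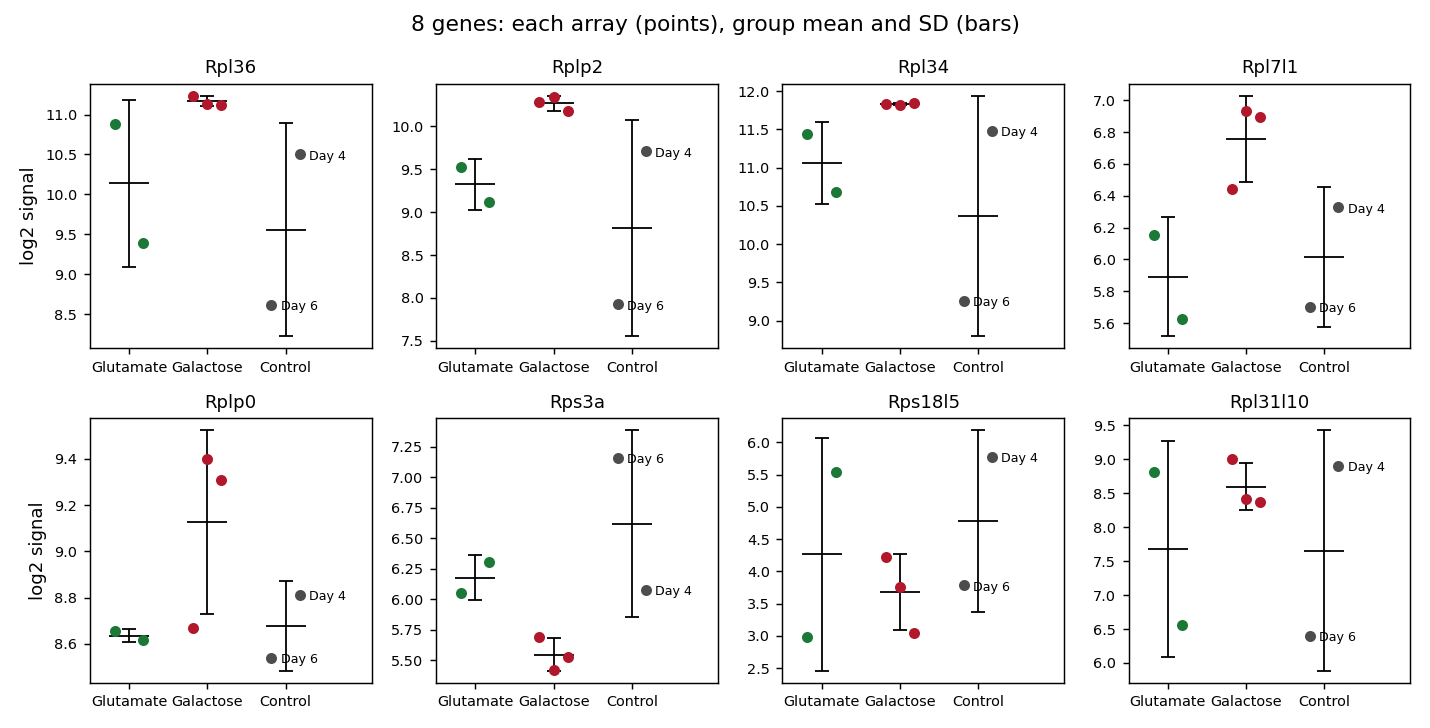
Log2 signal (vertical axis) of 8 genes in the Glutamate (n = 2), Galactose (n = 3) and Control (n = 2, Day 6 and Day 4) arrays, with points for arrays and bars for the group mean and SD. In Rpl36, Rplp2, Rpl34 and Rpl7l1 all Galactose arrays are above both Control arrays, in Rps3a all are below, and the 2 Glutamate arrays are more than 2 units apart in Rps18l5 and Rpl31l10.

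These differences depended on which Control array was used. Against Control Day 6 alone the Galactose mean was higher in 98 of the 105 genes, at least 2-fold in 76, with a median difference of 1.47. Of the 5320 tested probes 3562 were higher, and 25.6% of all tested probes were at least 2-fold higher, with a median of 0.32. Against Control Day 4 alone the Galactose mean was higher in 48 genes and lower in 57, with a median of -0.05. Among all tested probes 2541 were higher and 2769 lower, with a median of -0.02, so the 105 genes were near the background. Control Day 4 lay inside the range of the 3 Galactose arrays in 46 genes, above all of them in 35 and below all of them in 24. The matching shares of all tested probes were not computed, so these counts are a description only. In the limma fit without Control Day 4, in which the lone Control array is assumed to vary like the other groups, 65 genes were higher and 2 lower in Galactose at an adjusted p under 0.05, against 27.7% and 4.59% of all tested probes. At an unadjusted p below 0.05 the counts were 78 and 4, against 36% and 8.2%. Of the 65 genes, 47 were of the large and 18 of the small subunit, and 35 were core genes. Rplp2 (difference 2.35), Rpl9 (difference 2.03) and Rpl34 (difference 2.57) were among them, and Rps3a (difference -1.61) and Rps26-ps13 (difference -0.79) were the lower genes. Rps26-ps13 passed the limit of 5 only in Control Day 6, so its place there is not independent of the limit. In the limma fit without Control Day 6, 0 of the 105 genes passed in either direction, against 0.0376% of all tested probes higher and 0.0752% lower. There 2 genes were higher and 5 lower by unadjusted p, against 8.38% and 10.7%.

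**Figure D4:**
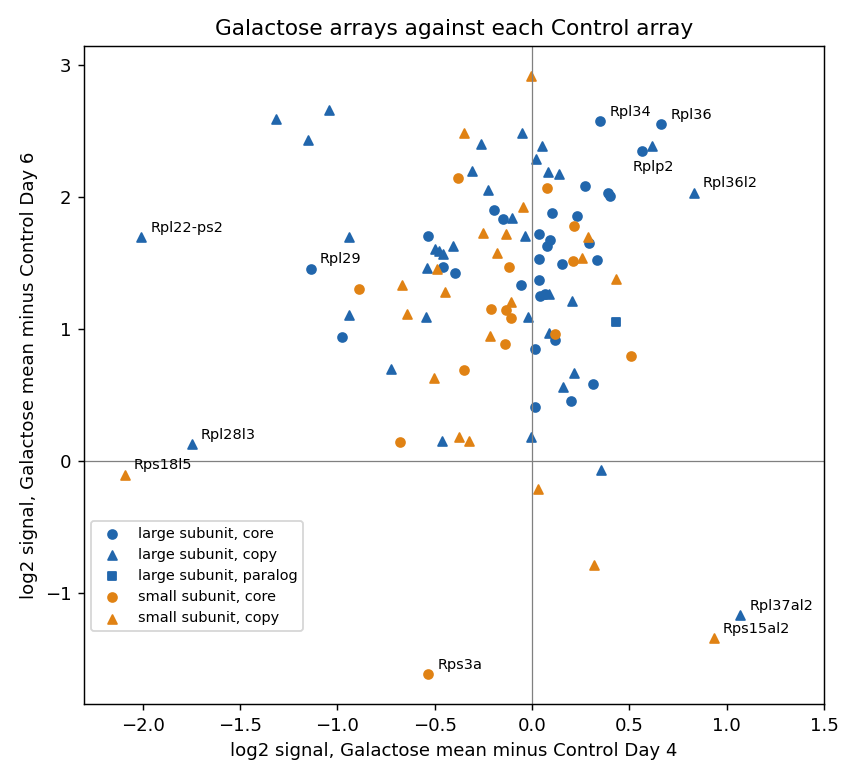
Mean log2 signal of the 3 Galactose arrays minus Control Day 4 (horizontal axis) and minus Control Day 6 (vertical axis), 1 point per gene, coloured by subunit, with core genes as circles, copies as triangles and the paralog as a square. The points spread on both sides of 0 along the horizontal axis (48 above, 57 below), while 98 of 105 lie above 0 on the vertical axis.

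In some genes Galactose exceeded either Control array. The margin of the Galactose mean over Control Day 4 was 0.83 in Rpl36l2, 0.66 in Rpl36, 0.56 in Rplp2, 0.35 in Rpl34 and 0.39 in Rpl9. Rpl37al2 and Rps15al2 went the other way round, each on its own dim probe. Their Galactose mean was above Control Day 4 by 1.07 and 0.93 and below Control Day 6 (-1.17 and -1.34). Rps15al2 passed the limit of 5 only in Control Day 6, so its difference from that array is not independent of the limit.

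By position in the ribosome, the core genes of the large subunit with defined roles gave the following values. At the stalk, Rplp2 is given above, and Rplp0 had 8.67, 9.40 and 9.31 in the Galactose arrays, against 8.54 in Control Day 6 and 8.81 in Control Day 4, differing by 0.45 (standard error 0.27) with overlapping groups. Rpl11, which binds the 5S ribosomal RNA and can restrain Mdm2, differed by 0.52, with 9.05, 8.89 and 8.94 in the Galactose arrays, against 8.04 in Control Day 6 and 8.84 in Control Day 4. Around the peptidyl transferase centre, Rpl3 and Rpl8 differed by 0.99 and 0.88, and Rpl10, which joins the subunit late in its assembly, by -0.02. The 6 measured proteins of the peptide exit tunnel and its rim (Rpl4, Rpl17, Rpl39, Rpl19, Rpl23a and Rpl35) had differences between 0.64 and 1.04.

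In the small subunit, the 6 measured head proteins (Rps3, Rps15, Rps19, Rps20, Rps28 and Rps29) had Galactose minus Control differences between -0.27 and 1.07, with a median of 0.46. The 6 proteins of the messenger RNA channel and decoding region (Rps2, Rps3, Rps14, Rps15, Rps28 and Rpsa) had a median of 0.34. Rps15 was the highest of both, with 9.36, 9.30 and 9.07 in the Galactose arrays, against 7.18 in Control Day 6 and 9.17 in Control Day 4. Rps6, the substrate of the S6 kinases, had 4.89, 4.89 and 4.97 in the Galactose arrays, against 3.83 in Control Day 6 and 5.03 in Control Day 4, and differed by 0.49 (standard error 0.34). Its Galactose mean was below Control Day 4, its signal was near the limit of 5, and 4 of the 5 arrays with galactose held the same value.

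Glutamate against Galactose asked which genes follow the decrease of the opacity. Glutamate had the lower mean in 82 of the 105 genes (78.1%), against 64.6% of all tested probes, and the median difference was -0.23, against -0.11 for all tested probes. In limma 0 genes passed an adjusted p of 0.05 in either direction, as did 0% of all tested probes. By unadjusted p under 0.05, 0 genes were higher in Glutamate and 1 was lower, against 1.13% and 4.4% of all tested probes. Both Glutamate arrays lay below all Galactose arrays in 30 genes (28.6%), against 21.7% of all tested probes, and above them in 2 (1.9%), against 7.76%. A mean at least 2-fold lower in Glutamate was found in 2 genes, against 2.27% of all tested probes. The 30 genes below all Galactose arrays were 25 of the large and 5 of the small subunit, and the 2 above them were Rps3a and Rpl7a. The limma spread is pooled over the 3 groups, the Control arrays included. In the fit without Control Day 4, and equally in the fit without Control Day 6, 1 gene was higher and 13 were lower in Glutamate by unadjusted p, against 2.12% and 9.83% of all tested probes, and 0 passed an adjusted p of 0.05.

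The 1 gene at an unadjusted p under 0.05 was Rpl7l1, a paralog of Rpl7 that works in assembly of the large subunit in the nucleolus. It had 6.15 and 5.63 in the Glutamate arrays and 6.44, 6.93 and 6.90 in the Galactose arrays. The groups did not overlap, and the difference was -0.87 (standard error 0.30, unadjusted p = 0.0236, limma adjusted p = 0.853). Against Control, at 5.70 on Day 6 and 6.33 on Day 4, the Galactose arrays were 0.74 higher (standard error 0.30), with no overlap.

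Rplp2 had 9.53 and 9.12 in the Glutamate arrays, below all Galactose arrays, a difference of -0.95 (standard error 0.49). Rplp0 had 8.65 and 8.61, also below all Galactose arrays, though only just below Galactose 1, with a difference of -0.49 (standard error 0.27). Rps21-ps1 (-0.88) and Rps21 (-0.84) were lower without overlap. Rps3a, which was lower in Galactose than in Control, had 6.05 and 6.31 in the Glutamate arrays, above all Galactose arrays, a difference of 0.63 (standard error 0.33, limma adjusted p = 0.908).

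Several of the widest differences rested on 1 Glutamate array. Rpl31-ps11 had 7.26 in Glutamate 1 and 5.11 in Glutamate 2, and its difference from Galactose (-1.10, standard error 1.26) was the lowest of the group. Rpl31l10 (8.81 and 6.55 in the Glutamate arrays), Rpl36 (10.88 and 9.40), Rpl36l6 (11.01 and 9.28), Rpl28l1 (7.38 and 5.71) and Rpl29 (9.09 and 7.58) showed the same split, with Glutamate 2 low. Glutamate 1 of Rpl36 was close to the Galactose arrays. In the opposite direction, Rps18l5 had 2.99 in Glutamate 1 and 5.55 in Glutamate 2, Rpl14 7.80 and 8.84, Rps15al2 3.78 and 4.79, and Rps12l2 9.88 and 10.74. Glutamate 2 was at least 2-fold lower than Glutamate 1 in 10 genes (9.52%), 8 of them of the large subunit, against 4.23% of all tested probes, and at least 2-fold higher in 3, against 1.79%.

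Glutamate against Control, the third pair of groups, shares its arrays with both comparisons above. Glutamate had the higher mean in 86 of the 105 genes (81.9%), against 56.2% of all tested probes, with a median difference of 0.41, against 0.06. In limma 0 genes passed an adjusted p of 0.05 (0% of all tested probes in either direction), and 0 had an unadjusted p under 0.05, against 2.93% of all tested probes higher and 3.68% lower. Both Glutamate arrays were above both Control arrays in 7 genes (6.67%), against 13.3% of all tested probes, and below both in 0, against 15%. A mean at least 2-fold higher was found in 1 gene, against 2.59% of all tested probes, and at least 2-fold lower in 0, against 1.35%.

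Rps15al4, a copy, had the largest difference (1.13, standard error 0.50), with 8.40 and 9.31 in the Glutamate arrays, against 7.02 in Control Day 6 and 8.43 in Control Day 4. Its Glutamate 1 array was just below Control Day 4, so the groups overlapped. Rpl7a, of the large subunit, had 10.51 and 10.69 in the Glutamate arrays, against 9.58 in Control Day 6 and 10.42 in Control Day 4, a difference of 0.60 (standard error 0.30) without overlap. Rpl10a (0.95), Rpl3 (0.94), Rpl27 (0.84) and Rpl23 (0.70) were higher without overlap as well, whereas Rps12l2 (0.96) overlapped. The lowest differences were in Rpl28l3 (-0.95), Rpl14-ps2 (-0.66), Rps18l5 (-0.51), Rpl31-ps11 (-0.47) and Rpl29 (-0.45), all with overlapping groups.

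This count again depended on the Control array. Without Control Day 4, 40 genes were higher and 1 lower in Glutamate at a limma adjusted p under 0.05, against 13.9% and 2.63% of all tested probes, with a median difference of 1.15. By unadjusted p these were 66 and 2 genes, against 28.1% and 7.59%. Without Control Day 6, 0 passed in limma (0% of all tested probes higher and 0.0376% lower). By unadjusted p under 0.05, 3 genes were then higher in Glutamate and 9 lower, against 3.08% and 9.61% of all tested probes, and the median was -0.37.

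The large and the small subunit ran close together. The median of the large subunit genes minus that of the small subunit genes, each gene set against its own mean, was 0.02 and -0.12 in the Glutamate arrays, 0.03, 0.08 and 0.08 in the Galactose arrays, -0.26 in Control Day 6 and -0.03 in Control Day 4. Within groups this value had an SD of 0.0984, and the median of all 105 genes one of 0.557. As differences between group means, the large subunit had a median of 0.67 and the small subunit 0.49 for Galactose minus Control, -0.30 and -0.16 for Glutamate minus Galactose, and 0.42 and 0.35 for Glutamate minus Control. The subunit difference in Galactose minus Control (0.18) was smaller than the difference in this value between Control Day 6 (-0.26) and Control Day 4 (-0.03). By unadjusted limma p, 11 genes were higher in Galactose. Of these, 10 were among the 68 of the large subunit and 1 (Rps24) among the 37 of the small subunit. The difference between these shares was not tested. Rps24 is counted on its dim probe, and on the brighter probe shared with Rps24-ps15 the groups overlapped (difference 0.54).

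Copies against core genes spanned a wider range over the arrays than the subunits did. The median of the 58 copies minus that of the 46 core genes, each gene set against its own mean, was -0.06 and -0.09 in the Glutamate arrays, 0.25, -0.07 and -0.24 in the Galactose arrays, -0.05 in Control Day 6 and 0.30 in Control Day 4. As group differences, the medians were 0.55 in copies and 0.67 in core genes for Galactose minus Control, -0.30 and -0.19 for Glutamate minus Galactose, and 0.25 and 0.47 for Glutamate minus Control. All Galactose arrays lay above both Control arrays in 4 copies (6.9%) and in 15 core genes (32.6%), against 21.5% of all tested probes.

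Single genes that left the common course were few. The lowest correlations with the mean of the other genes over the 7 arrays were those of Rps26-ps13 (-0.87), Rps3a (-0.83), Rps15al2 (-0.81), Rpl37al2 (-0.80) and Rpl10l1 (-0.37). Of these Rps3a is the only core gene, and each of the 4 copies was below 6 in every array. On its only probe Rps3a ran from 5.42 to 7.16 and was below 6 in all Galactose arrays. Rps15al2 had 3.78 and 4.79 in the Glutamate arrays, 3.45, 4.42 and 3.58 in the Galactose arrays, 5.16 in Control Day 6 and 2.89 in Control Day 4. Rpl37al2 had 4.95 and 5.77 in the Glutamate arrays, 4.60, 5.02 and 4.84 in the Galactose arrays, 5.99 in Control Day 6 and 3.75 in Control Day 4. On their own probes both were highest in Control Day 6 and lowest in Control Day 4. Much brighter signals (8.87 to 10.80) came from a probe that Rps15al2 shares with Rps15a and Rps15al4. There the Control gap was -0.97 (Day 6 minus Day 4) and Galactose minus Control 0.73. Rps15al2 thus left the common course on its own dim probe, not on the shared one. Rps26-ps13 and Rpl10l1 stayed between 4.19 and 5.35 throughout. Rps15al2 and Rps26-ps13 passed the limit of 5 only in Control Day 6, so their low correlations are not independent of the limit.

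The study first listed genes by a fold rule. Galactose had to be 2-fold or more higher than Control, and Glutamate 1.5-fold or more lower than Galactose. On group means of log2 signals 10 of the 105 genes met this rule (9.52%), against 4.77% of all tested probes. They were Rpl36, Rpl34, Rpl9, Rpl30, Rplp2, Rpl36l2, Rpl36l3, Rpl36l6, Rpl15l3 and Rpl18al1, all of the large subunit. Rpl36l2, Rpl36l3 and Rpl36l6 are copies of Rpl36 by symbol, and Rpl15l3 and Rpl18al1 are copies as well. Signals of a copy and its parent cannot be told apart, so the 10 genes may not be 10 separate signals. In Rpl15l3 the Glutamate arrays had 10.87 and 9.95, the Galactose arrays 11.07, 10.96 and 11.11, Control Day 6 8.76 and Control Day 4 11.02. Control Day 4 was thus inside the Galactose range, and Rpl18al1 (10.53 and 9.65, then 10.83, 10.93 and 10.64, then 8.61 and 10.72 in the same order of arrays) was alike in this. The mirror rule, down in Galactose and up with glutamate, was met by Rps3a and Rps18l5, against 0.639% of all tested probes. Rps18l5 met it on a dim probe (2.99 to 5.77). The brighter probes it shares with Rps18 and Rps18l1 differed by 0.13 for Galactose minus Control and did not meet it. The number under the study's fold rule was 0 without Control Day 6 and 20 without Control Day 4. To choose genes for RT-qPCR, the study's methods set a stricter cut on the decrease. The lowest Glutamate minus Galactose difference among the 105 genes (-1.10) did not reach the cut in the methods. A figure legend of the study gives the cut as more than 2-fold instead. Rpl36, which met the fold rule, was 1 of 2 genes at least 2-fold lower in Glutamate than in Galactose.

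Genes that work with the ribosome were read in the same way, from lists of related function. Fau, which encodes a small subunit protein fused to a ubiquitin-like domain, had 8.13 and 7.89 in the Glutamate arrays, 8.68, 8.17 and 8.56 in the Galactose arrays, 6.46 in Control Day 6 and 8.56 in Control Day 4. Rack1, a scaffold on the head of the small subunit, had 10.40 and 10.20 in the Glutamate arrays, 10.58, 10.50 and 10.51 in the Galactose arrays, 8.68 in Control Day 6 and 10.69 in Control Day 4. Both followed the ribosomal protein genes, with Control Day 6 far below the other arrays.

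In each of the lists 0 genes passed an adjusted p of 0.05 in limma in any of the 3 comparisons. Mitochondrial ribosomal proteins (54 genes) had a median difference of 0.61 for Galactose minus Control, with 6 genes higher and 0 lower by unadjusted p, where 11.8% of all tested probes were higher and 5.23% lower. Of the 54 genes, 51 were lower in Control Day 6 than in Control Day 4, against 70.5% of all tested probes. Mrpl49, the one with the smallest p, had 5.78 and 5.42 in the Glutamate arrays, 5.99, 6.38 and 6.23 in the Galactose arrays, 3.88 in Control Day 6 and 4.98 in Control Day 4. Mrpl49, Mrpl10 and Mrpl3, all among the 6 higher genes, passed 5 only in arrays with galactose. Their counts are thus not independent of the limit. Other messages with a TOP motif (12 genes) had a median of 0.60, with 1 gene higher and 0 lower by unadjusted p. Hnrnpa1, an RNA-binding protein, was the 1 gene (0.83, standard error 0.25). It passed 5 only in the Galactose arrays (5.16, 5.12 and 5.52), the group in which it was higher, so its count is not independent of the limit. Eef1a1, the elongation factor that delivers transfer RNA, differed by 0.12.

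Ribosome assembly factors (16 genes) all had the higher mean in Galactose, against 62% of all tested probes, with a median of 0.64. Of the 16 factors, 5 were higher by unadjusted p, against 11.8% of all tested probes. Nip7, a factor of large subunit maturation, had 5.24 and 6.02 in the Glutamate arrays, 6.12, 5.97 and 6.03 in the Galactose arrays, 4.76 in Control Day 6 and 4.86 in Control Day 4. Here the 2 Control arrays lay close together, and the difference for Galactose minus Control was 1.23 (standard error 0.26, limma adjusted p = 0.128). Nip7 passed 5 only in arrays with galactose, where it was higher, so its count is not independent of the limit. Nop58, of the box C/D particles that methylate ribosomal RNA, had 5.96, 5.95 and 6.05 in the Galactose arrays, against 5.13 in Control Day 6 and 5.42 in Control Day 4 (difference 0.71, standard error 0.19, adjusted p = 0.174). Of the mTORC1 and S6 kinase list (18 genes, median 0.32), 4 were higher and 0 lower by unadjusted p, against 11.8% and 5.23% of all tested probes, led by Slc3a2, the heavy chain of an amino acid transporter, with a difference of 1.68 (standard error 0.45, adjusted p = 0.174). RNA polymerase I genes (5) had a median of -0.16 and 0 at an unadjusted p under 0.05.

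Control Day 6 was low in these lists to different extents. Its median, each gene set against its own mean, was -1.12 for the mitochondrial ribosomal proteins, -0.90 for other TOP messages, -0.68 for assembly factors, -0.33 for mTORC1 and S6 kinase genes, -0.05 for RNA polymerase I, -0.15 for the 15 fibre markers and 0.03 for the 7 epithelial markers, against -1.19 for the ribosomal protein genes. The epithelial markers were lowest in Galactose 1 (-1.14) and highest in Control Day 4 (0.56), the 2 arrays with the highest medians of ribosomal protein genes. Between Galactose and Control, 4 of the 7 epithelial markers had the lower and 3 the higher mean in Galactose, with a median of -0.44. At least 2-fold lower were 3 markers, and 0 were at least 2-fold higher. The 3 differed by -2.98 for the water channel Aqp1 (limma adjusted p = 0.063), -1.95 for the transcription factor Foxe3 (0.0896) and -1.49 for Mab21l1 (0.28). The markers with the higher mean were Gja1 (0.47), Pax6 (0.15) and Cdh1 (0.12). Pdgfra, taken from the list of fibroblast markers, differed by -1.72 (limma adjusted p = 0.133). It was the only 1 of the 6 markers on that list above 5 in any array, and whether it reports fibroblasts here was not tested. The part of cell composition in the values of the ribosomal protein genes was not tested.

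**Figure D5:**
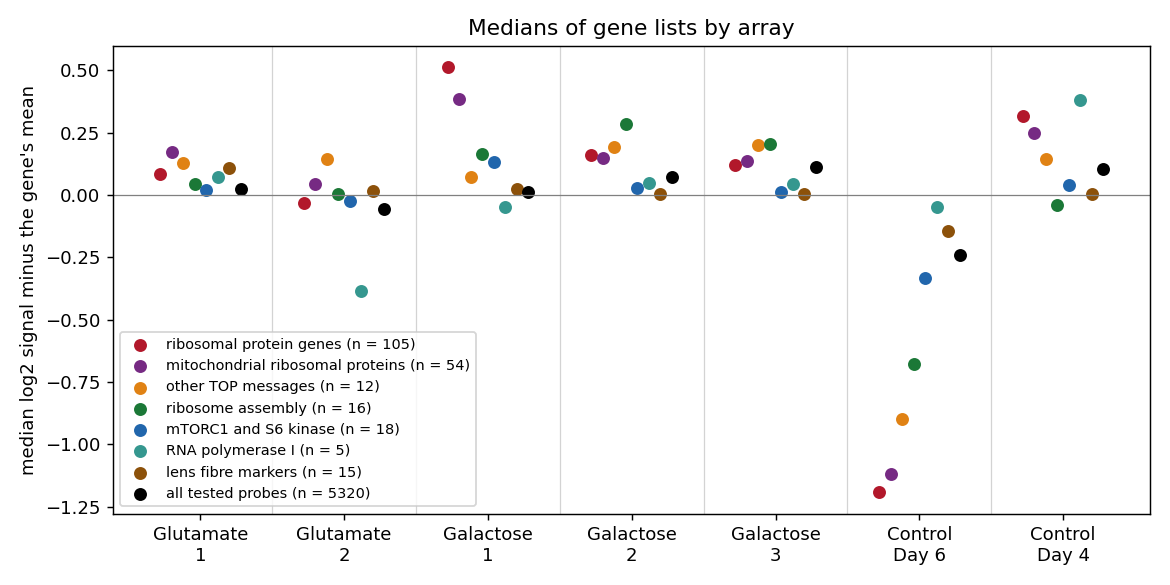
Median log2 signal of each gene list minus each gene's own mean over the 7 arrays (vertical axis), by array, 1 point per list. Of the lists plotted, the ribosomal protein genes (-1.19) and mitochondrial ribosomal proteins (-1.12) are lowest in Control Day 6, and the RNA polymerase I genes (-0.05) and fibre markers (-0.15) are nearest 0 there.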

How the data were processed

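RNA of 7 rat lens cultures was hybridised by the authors to Rat Gene 2.0 ST GeneChips, each sample on its own array. The authors normalized the whole set by Robust Multi-array Average (RMA) and deposited a log2 signal for every probe. Names came from the platform annotation. Probes of several genes were left out of the group, and a probe needed a signal above 5 in at least 1 array, after the study's methods. The methods state no test. Group means were fitted in limma 3.58.1 under R 4.3.3 (1 mean per group, 4 residual and 2.73 prior degrees of freedom), with Benjamini-Hochberg adjustment over 5320 probes. The fit was tested on simulated data. Other values were computed with Python 3.11.15, numpy 2.4.6 and pandas 2.3.3, and figures with matplotlib 3.10.9. Sequences are from RefSeq (GRCr8).

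The genes and lists were chosen with earlier results of these data known. Genes are named by rule: per comparison the 5 highest, the 5 lowest and the 5 with the smallest p, the 5 least correlated, defined role groups, and those under the study's fold rule. Others (Rpl24, Rpl41, Rps24, Rps13, Rps21, Rpl14, copies with wide gaps) were chosen after their values were seen. RMA summaries gave equal values in 2 arrays for 17 of the 105 genes (16.2%), against 37.8% of all tested probes. The number of arrays limits the precision.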

Additional observations from a re-analysis of the deposited data

How the results depend on the processing

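The count of ribosomal protein genes past an adjusted p of 0.05 was 0 in each comparison under every alternative except leaving out Control Day 4. Leaving out 1 array at a time, it ran from 0 to 67 for Galactose minus Control and from 0 to 41 for Glutamate minus Control. The median difference then ran from -0.0486 to 1.47 for Galactose minus Control, from -0.37 to 1.15 for Glutamate minus Control and from -0.30 to -0.11 for Glutamate minus Galactose. Large minus small subunit ran from 0.16 to 0.40 for Galactose minus Control, from -0.0565 to 0.23 for Glutamate minus Control and from -0.29 to -0.10 for Glutamate minus Galactose. Its value for Glutamate minus Control (0.08) was -0.00798 for probes with a mean above 5, -0.00333 after a second quantile normalization and -0.0318 with shared probes as members. The fold rule gave 0 to 20 genes and its mirror 0 to 2 with 1 array left out, and the rule gave 2 after the second quantile normalization. That normalization moved the median of all tested probes for Galactose minus Control to 0.00 and of the 105 genes to 0.27 (0.49 with arrays centred on their median), and gave a gap between Control Day 6 and Control Day 4 of -0.90, with 89 of 105 genes lower. With 1 array left out in turn, the direction turned at least once in 61 of the 105 genes for Galactose minus Control (51 of them without Control Day 6), in 45 for Glutamate minus Galactose and in 83 for Glutamate minus Control (67 without Control Day 6). Among the genes named for the size or p of their difference, those that turned were, as ranges, for Galactose minus Control Rpl28l3 (-1.75 to 0.13), Rps26-ps13 (-0.79 to 0.32), Rps26l5 (-0.00693 to 2.91) and Rps28 (-0.68 to 0.15). For Glutamate minus Galactose they were Rpl31l10 (-2.04 to 0.21), Rps12l2 (-0.0185 to 0.84), Rps15al2 (-0.0376 to 0.97) and Rps18l5 (-0.69 to 1.86), and for Glutamate minus Control Rpl29 (-1.75 to 0.85), Rpl31-ps11 (-2.42 to 1.48), Rps18l5 (-1.79 to 0.77) and Rps26l5 (-0.59 to 2.33). Causes were not tested. Galactose and Glutamate share replicate numbers but no stated pairing (deviations of same-numbered arrays correlated at -0.03 and 0.06), and with the replicate number as a block 0 genes passed, with a median difference of -0.30 for Glutamate minus Galactose.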

Other observations

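Probes that the annotation shares among several genes were kept out of the 105 genes, and 17 of them would have added a ribosomal protein gene, among them probes for Rpl31, Rpl38, Rps7, Rps23 and Rps25. All 17 were lower in Control Day 6 than in Control Day 4, with a median difference of -1.40 (-2.55 to -0.85). The median Galactose minus Control difference of these probes was 0.78 (0.13 to 1.38), Glutamate minus Galactose -0.25 (-0.81 to 0.49) and Glutamate minus Control 0.56 (0.14 to 1.08). No cause of these values was tested.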
